A study of Sus scrofa with 16 samples.

Results

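The genes described here encode the proteins of the mitochondrial ribosome, a family chosen with earlier results of these data known. Its probe sets were taken by name alone: every probe set whose single symbol in the platform annotation starts with MRPL or MRPS and a digit. This gave 77 probe sets for 58 genes, 36 of them named for the large subunit and 22 for the small subunit, out of 24123 probe sets and 6765 symbols in all. The mitochondrial ribosome works inside the organelle and translates only the few respiratory chain and ATP synthase subunits that mitochondrial DNA encodes. Its ribosomal RNA comes from mitochondrial DNA, but all of its proteins are encoded in the nucleus, made in the cytosol and imported, so that both genomes have to supply the same particle. Many of these proteins have counterparts in bacterial ribosomes, and others are found only in mitochondria. In muscle the particle makes the core subunits of the complexes that produce most of the ATP of oxidative fibres.

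Expression was measured on Affymetrix porcine arrays in the diaphragm, the main muscle of breathing, and in the psoas major, a loin muscle, of the same 8 Iberian pigs at 211 days of age. The 4 males (animals 1 to 4) and 4 females (animals 5 to 8) were each divided between a high feeding level (animals 1, 4, 6 and 7) and a 20% restriction (animals 2, 3, 5 and 8). With 1 array for each muscle of each animal there were 16 arrays, or 2 for each of the 8 combinations of muscle, sex and feeding. All pigs received the same pelleted diet before the restriction, of which the start, like any castration of males, is not given in the labels. Whole muscle was measured, so that fewer cells of a type and less RNA per cell cannot be told apart.

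Values are log2 expression values, where a difference of 1 is a doubling. A probe set was tested if it reached 4 in at least 4 of the 16 arrays. By this rule 71 member probe sets were tested, for 57 of the 58 genes. The 6 that were not tested reached 4 in 0 to 3 arrays. They were the sole probe set of MRPS23 and additional probe sets of MRPL15, MRPL35 (2 of them), MRPL46 and MRPL52. A probe set was called when its adjusted p from limma (Benjamini-Hochberg over all 11467 tested probe sets) was under 0.05. Where 1 gene had several tested probe sets, letters (a to c) name them in order of their muscle difference. Errors of differences are standard errors (SE), and those of group means are standard deviations (SD).

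Between 11025 and 11163 probe sets per array reached 4, and array medians lay between 3.56 and 3.62. All 11 tested markers of skeletal muscle fibres were high in both muscles, with means of 14.37 to 14.48 in diaphragm arrays and 14.54 to 14.72 in psoas arrays. Among them MYH2 averaged 12.52 in diaphragm and 15.26 in psoas, while the median difference of the 11, psoas minus diaphragm, was 0.01. MYH2 and TNNT3 were called higher in psoas, and MYL2 and TNNT1 higher in diaphragm. The diaphragm arrays of animals 1, 2, 3 and 5 stood apart in the control probe sets for beta-actin: the 3′ signal exceeded the 5′ signal by 4.07 to 4.33 there, against 3.35 to 3.49 in the other 4 diaphragm arrays and 3.07 to 3.85 in psoas. For GAPDH the gap was -0.04 to 0.08 in these 4 arrays, -0.23 to -0.07 in the other 4 and -0.17 to -0.04 in psoas. For EF1A it was 0.91 to 1.27, 0.70 to 0.90 and 0.81 to 1.5, so that this control did not set the 4 arrays apart from psoas. A larger gap between the 3′ and 5′ ends can come with shorter RNA. Results on the muscles are also given for animals 4, 6, 7 and 8 alone, which are 1 male and 3 females, and results on feeding and sex with this grouping as a covariate.

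Genes of the mitochondrial ribosome were present at widely spread levels. Means over the 16 arrays ran from 3.99 to 11.16 among the 71 tested probe sets. The highest were those of MRPS21, a small-subunit protein with a bacterial counterpart (10.82 to 11.43 over the arrays), MRPL30 (10.35 to 11.00) and MRPL51 (10.18 to 10.77), both of the large subunit. The lowest were 1 probe set each of MRPS2 (3.57 to 4.43), MRPL3 (3.88 to 4.41) and MRPL52 (4.06 to 4.34), at the level of the filter. Since probes differ in how strongly they bind, these levels order signals and not the abundance of the transcripts.

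Between the muscles, mitochondrial ribosome genes were more often higher in psoas. Of the 71 tested probe sets, 18 rose in psoas, which is 25.4% of them, against 14.6% of all tested probe sets, and 1 rose in diaphragm, against 12.4% of all. The 18 belonged to 17 genes. The other 52 did not pass the threshold, and their intervals had a median width of 0.19 to either side. Counting signs without a test, 56 of 71 were higher in psoas (78.9%, against 52.6% of all tested probe sets). The median difference, psoas minus diaphragm, was 0.17 for the members (quartiles 0.07 and 0.27) and 0.02 for all tested probe sets. Differences were small: they ran from -0.36 to 0.66, or up to 1.58-fold. With 1 probe set per gene, the counts were 15 and 1 of 57, with a median of 0.18.

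**Figure D1:**
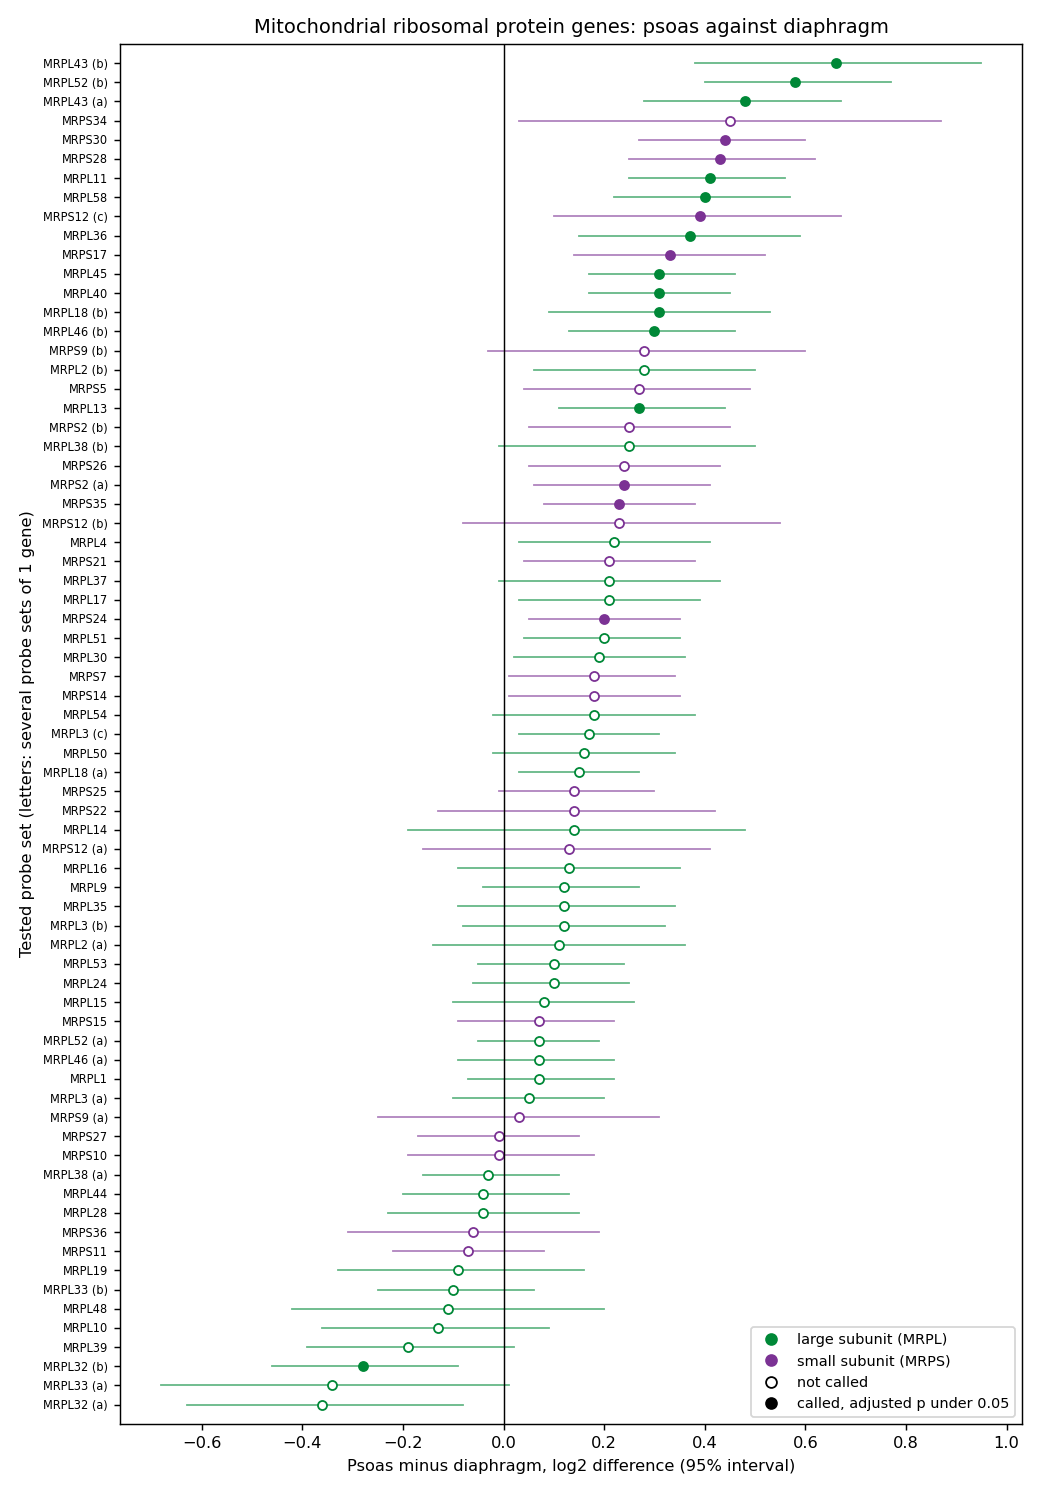
Log2 difference between psoas and diaphragm for each of the 71 tested probe sets (points, with 95% intervals of the fit), ordered by size, in green for large-subunit and purple for small-subunit names, and filled where called. Of the 71 points, 56 lie to the right of 0, and the filled ones are 18 on the psoas side and 1, MRPL32, on the diaphragm side.

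The largest called difference was that of MRPL43, a large-subunit protein without a bacterial counterpart. Its probe set b measured 5.41, 5.79 and 6.28 in diaphragm (lowest, median and highest of 8 arrays) and 6.04, 6.41 and 6.95 in psoas. The ranges overlapped, but the value was higher in psoas in 8 of 8 animals. The difference was 0.66 ± 0.13 (SE), 1.58-fold, with an adjusted p of 0.0024. The second probe set of the gene, a, measured 9.39 ± 0.18 in diaphragm and 9.87 ± 0.21 in psoas (SD, n = 8 each), a difference of 0.48 ± 0.09 (SE, adjusted p = 0.0018). It too was higher in psoas in 8 of 8 animals, and MRPL43 was the only gene of this group with 2 probe sets called.

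MRPL52, another large-subunit protein found only in mitochondria, had the smallest adjusted p of the group. Its probe set b ran from 8.95 to 9.26 in diaphragm (median 9.05) and from 9.48 to 9.95 in psoas (median 9.57), so that the muscles did not overlap. It was 1.5-fold higher in psoas (0.58 ± 0.09, SE, adjusted p = 0.00035). MRPS30 was the other called member whose arrays did not overlap, with 5.97 to 6.35 in diaphragm (median 6.21) and 6.42 to 6.82 in psoas (median 6.61). Its difference was 0.44 ± 0.08 (SE, adjusted p = 0.0011). MRPS30 is named for the small subunit, although structures of the particle place it in the large one. Among all tested probe sets, 3.72% had arrays of the 2 muscles that did not overlap.

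MRPL11, which forms the base of the stalk where elongation factors bind, was higher in psoas in 8 of 8 animals. It ran from 7.66 to 8.05 in diaphragm (median 7.93) and from 8.02 to 8.55 in psoas (median 8.29). The difference was 0.41 ± 0.07 (SE, 1.32-fold, adjusted p = 0.0014). MRPL58, also known as ICT1, is a peptidyl-tRNA hydrolase built into the large subunit that can free stalled ribosomes. It ran from 8.38 to 8.85 in diaphragm (median 8.5) and from 8.53 to 9.25 in psoas (median 8.89), with psoas higher in each of the 8 animals. The difference was 0.40 ± 0.08 (SE, adjusted p = 0.0031).

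Among the small-subunit proteins, MRPS28 ran from 7.48 to 7.96 in diaphragm (median 7.68) and from 7.83 to 8.40 in psoas (median 8.14). It was higher in psoas in 7 of 8 animals, animal 8 having 7.96 in both muscles, and the difference was 0.43 ± 0.09 (SE, adjusted p = 0.0025). MRPS12 lies at the decoding centre, where the ribosome reads the codon. Its probe set c ran from 6.49 to 7.83 in diaphragm (median 7.09) and from 6.79 to 8.24 in psoas (median 7.40). These wide ranges overlapped for most of their length. The difference, 0.39 ± 0.13 (SE), passed at an adjusted p of 0.044. It did not pass without sex and feeding level as covariates (adjusted p = 0.22), with no filter on low values (0.097), or in 7 of the 8 fits that left out 1 animal (up to 0.11).

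**Figure D2:**
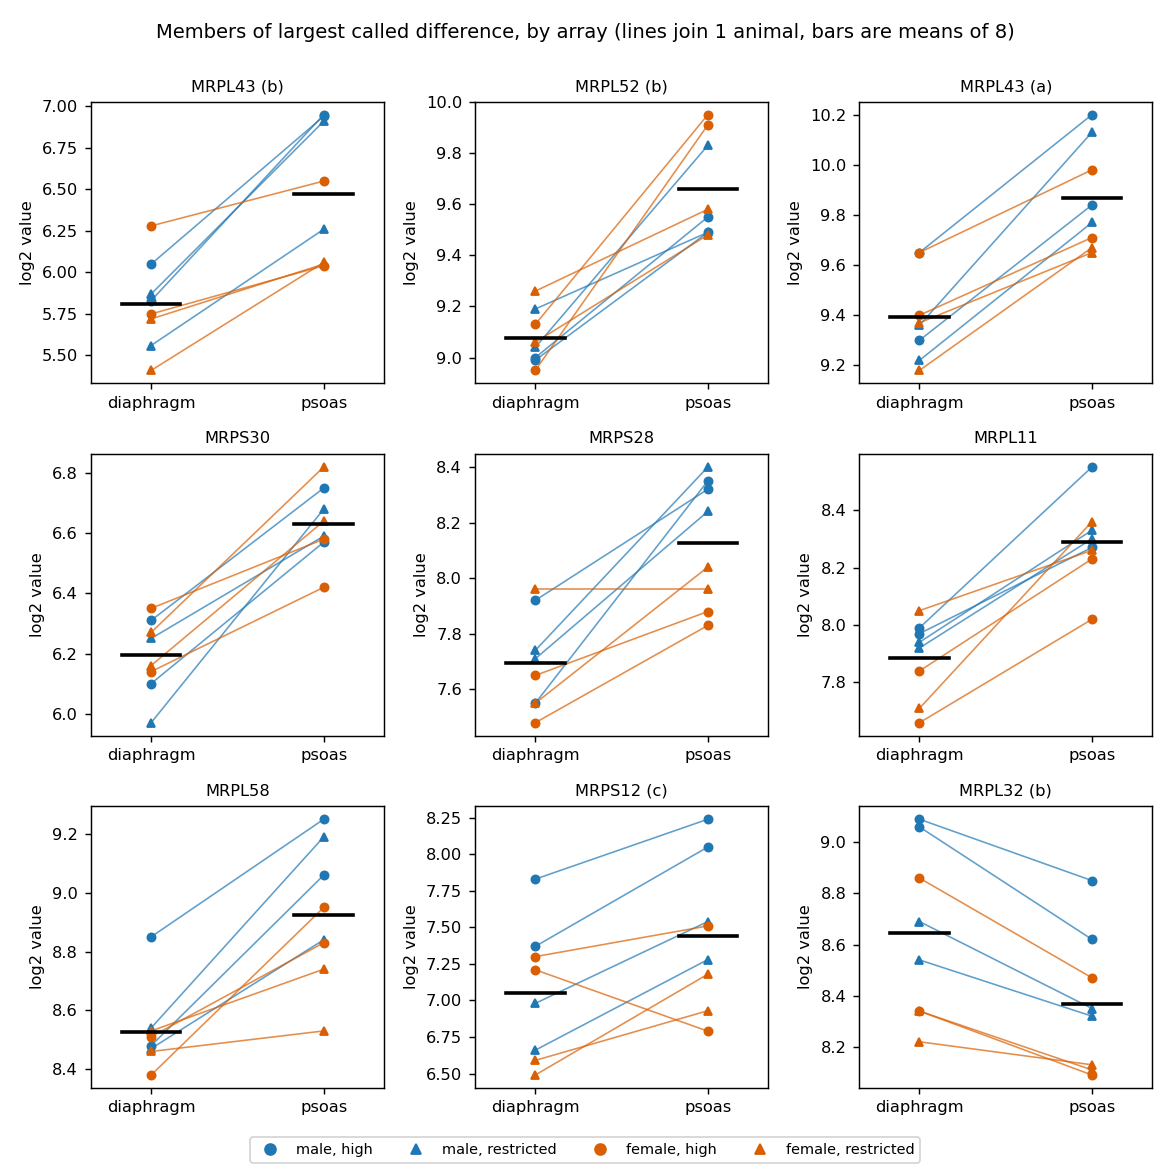
Log2 values of the 9 called probe sets with the largest differences, 8 higher in psoas and MRPL32 higher in diaphragm; each line joins the 2 arrays of 1 animal, symbols and colours give feeding level and sex, and black bars are means of 8 arrays. Only in MRPL52 and MRPS30 are the 2 muscles free of overlap, and every line of MRPL32 slopes down.

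The other 10 probe sets that rose in psoas differed by 0.20 to 0.37. They were MRPL36 (0.37 ± 0.10 SE), MRPS17 (0.33 ± 0.09), MRPL40 (0.31 ± 0.06), MRPL45, which ties the particle to the inner membrane (0.31 ± 0.07), and MRPL18 (0.31 ± 0.10). Smaller differences were those of MRPL46 (0.30 ± 0.08), MRPL13 (0.27 ± 0.08), MRPS2 (0.24 ± 0.08), MRPS35 (0.23 ± 0.07) and MRPS24 (0.20 ± 0.07). Their adjusted p-values ran from 0.0028 for MRPL40 to 0.046 for MRPS24. MRPS2 and MRPS24 each passed in 1, MRPL18 in 2, MRPS35 in 3 and MRPL13 in 5 of the 8 fits with 1 animal removed, and MRPL36 in 7.

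MRPL32 went the other way. This large-subunit protein is cut to its mature form by the m-AAA protease of the inner membrane before it joins the particle. Its probe set b ran from 8.22 to 9.09 in diaphragm (median 8.62) and from 8.09 to 8.85 in psoas (median 8.33). Although the ranges overlapped, diaphragm was higher in 8 of 8 animals. The difference was -0.28 ± 0.09 (SE, adjusted p = 0.028). It did not pass with no covariate (adjusted p = 0.18) or without animal 1 (0.072), 2 (0.055), 3 (0.078) or 5 (0.052). The second probe set of the gene was also higher in diaphragm in 8 of 8 animals, by -0.36 ± 0.13 (SE, adjusted p = 0.052). The rest of the diaphragm side comprised 13 probe sets that did not pass the threshold, from MRPL33 (-0.34 ± 0.16, SE) to MRPS10 and MRPS27 (-0.01 each).

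Both subunits, counted by name, showed the shift. Of 46 tested large-subunit probe sets, 11 rose (23.9%, against 14.6% of all tested probe sets) and 1 fell in psoas, with a median difference of 0.14. Of 25 probe sets with small-subunit names, 7 rose (28%) and none fell, with a median of 0.21. These names include MRPS30, which rose and is placed in the large subunit by structures, and MRPS36, now placed outside the ribosome. In a grouping made after the values were seen, 43 probe sets were counted as having a bacterial counterpart, by their number or, for MRPS24, by homology. Of these 8 rose (18.6%, near the 14.6% of all) and 1 fell (median 0.14). Among the 28 others, 10 rose (35.7%) and none fell (median 0.20). A split by number can misplace single proteins, such as MRPS28, which rose and is counted among the others. Whether the groups in either pair differed from each other was not tested.

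Where a gene had more than 1 tested probe set, their differences mostly had the same sign. There were 12 such genes, and 1 of them, MRPL38, had opposite signs (-0.03 ± 0.06 and 0.25 ± 0.12, SE, neither called). In 7 of the 12 at least 1 probe set was called. MRPL18 differed by 0.15 and 0.31, MRPL46 by 0.07 and 0.30, MRPL52 by 0.07 and 0.58, and MRPS2 by 0.24 and 0.25, with 1 called in each gene. The probe set of MRPL52 at 0.07 lay near the filter level. So did that of MRPS2 at 0.25, which reached 4 in 6 arrays, 5 of them of psoas, and so entered the tests mainly through the muscle where it was higher. It supports nothing on its own. MRPS12 had differences of 0.13, 0.23 and 0.39, the last of them called. Among the genes with no call, MRPL2 differed by 0.11 and 0.28, MRPL3 by 0.05, 0.12 and 0.17, MRPL33 by -0.34 and -0.10, and MRPS9 by 0.03 and 0.28.

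Counted by animals, 18 of 71 members were higher in psoas in 8 of 8 animals, against 11.7% of all tested probe sets. Another 2, both of MRPL32, were higher in diaphragm in 8 of 8 animals, against 9.71% of all. Of the 18 called psoas members, 14 were higher there in every animal. With the animal as a block, which sets the 2 arrays of an animal against each other, 25 members rose in psoas (17.7% of all tested probe sets did) and 3 rose in diaphragm (15.8% of all). All 19 earlier calls were among these 28, and so was the probe set of MRPS2 (b) that entered mainly through psoas. The 3 on the diaphragm side were both probe sets of MRPL32 and 1 of MRPL33 (adjusted p = 0.027).

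The size of the shift differed from animal to animal. The median difference of the 71 members was 0.24, 0.23, 0.16 and 0.21 in the males (animals 1 to 4) and 0.19, 0.10, 0.07 and 0.02 in the females (animals 5 to 8). The number higher in psoas was 53, 59, 53 and 59 of 71 in the males and 57, 50, 43 and 38 in the females. Animals 7 and 8 thus showed little of it as a group, with 60.6% and 53.5% of members higher in psoas, against 52.5% and 52.0% of all tested probe sets. Of the 18 called members 17 and 16 were higher in their psoas. Both animals were part of the fit that gave these calls, so that this count is no separate support. The medians over all tested probe sets lay between -0.02 and 0.05 in the 8 animals.

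**Figure D3:**
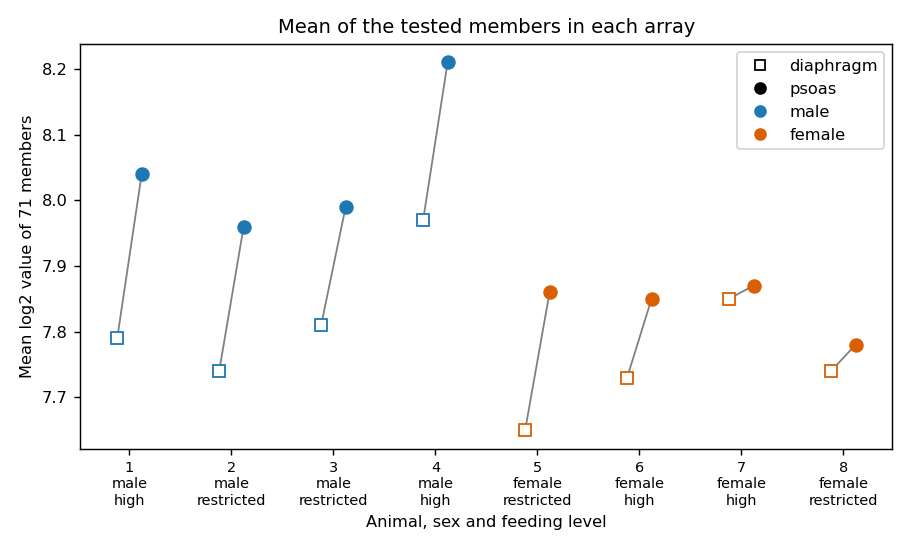
Mean log2 value of the 71 tested members in each of the 16 arrays, with open squares for diaphragm, filled circles for psoas and a grey line joining the arrays of 1 animal. Psoas lies above diaphragm in each animal, the lines of animals 7 and 8 are the shortest, and in psoas the 4 males (7.96 to 8.21) lie above the 4 females (7.78 to 7.87).

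The counts depended on the animals that entered. In animals 4, 6, 7 and 8 alone, none of the 71 members passed the threshold of limma, and 3.53% of all tested probe sets (405) did. In these 4 animals 51 of 71 members were higher in psoas, with a median difference of 0.12. All 19 called members kept their sign, but these animals had entered the fit that gave the calls. That count is therefore no separate support. MRPL52 differed by 0.65 there (adjusted p = 0.053), MRPL43 by 0.45 and 0.37, MRPS28 by 0.24 and MRPS12 by 0.14. Leaving out animal 3 lowered the number of members called from 19 to 11, all of them on the psoas side. Over all tested probe sets it lowered the number from 3094 to 2162 (18.9%). 

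Markers of cells other than muscle fibres were higher in diaphragm. All 6 tested endothelial markers (median difference -0.76), 4 of 5 immune markers (-0.74), 3 of 5 fat markers (-1.25), 4 of 6 fibroblast and matrix markers (-0.60) and 7 of 7 hepatocyte markers (-2.49) rose in diaphragm, and 1 fibroblast and matrix marker rose in psoas. The mean over each whole list on the array ran from 6.28 to 6.76 in diaphragm and 5.73 to 6.18 in psoas for endothelium, and from 5.08 to 5.87 and 4.72 to 5.15 for immune cells. It ran from 5.95 to 7.71 and 5.39 to 5.83 for fat, from 7.83 to 8.63 and 7.11 to 8.04 for fibroblasts, and from 3.64 to 7.93 and 3.13 to 3.78 for hepatocytes. The markers KDR and TIE1 of endothelium, PTPRC, CD14, CD3E and ITGB2 of immune cells, LEP of fat, and KRT19 and WT1 of mesothelium lay below 4 in every array. The part of these cells in the muscle difference of the ribosomal genes was not tested.

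Other genes that serve the same particle were counted from lists of their own, with 1 probe set per gene. Of 14 tested genes for assembly of the mitochondrial ribosome and modification of its RNA, 6 rose and 1 fell in psoas, which is 42.9% and 7.14% of the list against 14.6% and 12.4% of all tested probe sets (median 0.19). The GTPase MTG1 rose by 0.46 ± 0.09 (SE, adjusted p = 0.0016). ERAL1, which binds the small-subunit RNA, rose by 0.36 ± 0.08 (0.0034), and the RNA methyltransferase TFB1M rose by 0.49 ± 0.12 (0.0079). MALSU1, MPV17L2 and MRM2 were the other 3. YBEY, an RNA-processing endonuclease, was lower in psoas in 8 of 8 animals, by -0.57 ± 0.11 (SE, adjusted p = 0.0019). Of 4 ribosome proteins with other symbols, CHCHD1 rose (0.37 ± 0.08, SE, adjusted p = 0.0042), which is 25% of the list against 14.6% of all tested probe sets. By sign 2 of the 4 were higher and 2 lower in psoas, with a median of 0.05.

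Among 10 translation factors, 1 rose and 2 fell in psoas (10% and 20%, against 14.6% and 12.4% of all tested probe sets), with a median of 0.08. The release factor MTRF1L rose by 0.40 ± 0.10 (SE, adjusted p = 0.0088). MRRF, which recycles ribosomes after termination, had a difference of -0.50 ± 0.09 (0.0014), and GFM1, an elongation factor, of -0.39 ± 0.13 (0.038). Of 5 genes that serve the loading of mitochondrial tRNA with amino acids, FARS2 rose by 0.32 (adjusted p = 0.031), with a list median of -0.05. That is 20% of the list, against 14.6% of all tested probe sets. None of 11 genes for mitochondrial DNA copying, transcription and RNA handling passed limma's threshold (0 also at an unadjusted p under 0.05, median -0.03), nor did any of 5 regulators of mitochondrial gene expression (0 likewise, median 0.15).

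Nuclear-encoded subunits of the respiratory chain and ATP synthase were mostly lower in psoas by sign. Of 59 such genes, 9 fell and none rose in psoas, with a median of -0.10. The 9 are 15.3% of the list, near the 12.4% of all tested probe sets, while 49 of 59 were lower in psoas by sign (83.1%, against 47.4% of all). COX6A1, a subunit of cytochrome c oxidase, had a difference of -0.45 ± 0.09 (SE, adjusted p = 0.0030). The succinate dehydrogenase subunit SDHA had -0.33 ± 0.08 (0.0064), and NDUFS5 of complex I had -0.26 ± 0.07 (0.013). Genes of the cytosolic ribosome, which translates nuclear messages, were mostly higher in psoas by sign, 48 of 56 (85.7%, against 52.6% of all). Of these 56 genes, 10 rose and 1 fell (median 0.10), and the 10 are 17.9%, near the 14.6% of all tested probe sets. They were led by RPLP1 (0.46 ± 0.07, SE), RPS27L (0.60 ± 0.09) and RPS2 (0.29 ± 0.05). RPLP2 had a difference of -0.22 ± 0.07 (SE, adjusted p = 0.038). These lists share all arrays with the members, and the difference between lists was not tested.

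**Figure D4:**
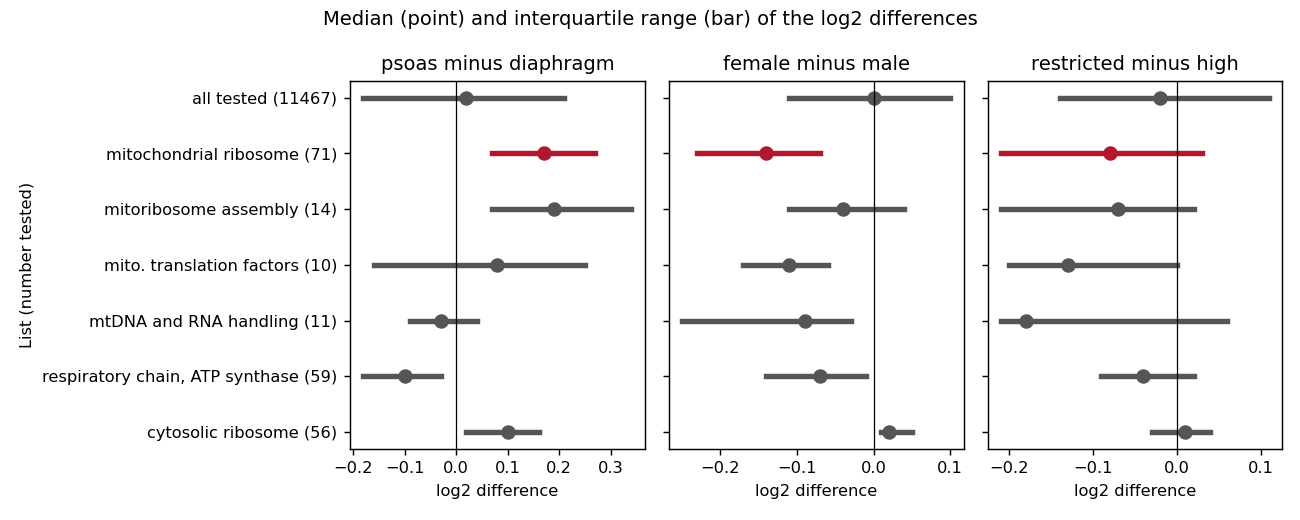
Median (point) and interquartile range (bar) of the log2 differences of each list, with the number tested in brackets, for psoas minus diaphragm, female minus male and restricted minus high feeding. For the muscles the mitochondrial ribosome (red, 0.17) and its assembly genes (0.19) lie to the right of all tested probe sets (0.02) and the respiratory chain (-0.10) to the left.

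Between the sexes, no member passed the threshold of limma, and 0.183% of all tested probe sets did (21). At an unadjusted p under 0.05, 12 of 71 members were lower in females, against 4.87% of all tested probe sets, and 0 were higher. By sign alone, 63 of 71 were lower in females (88.7%, against 50.7% of all). The median difference, female minus male, was -0.14 for the members and 0.00 for all. It was -0.13 for the large and -0.16 for the small subunit. Unadjusted intervals reached a median of 0.24 to either side, and the smallest adjusted p was 0.28.

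MRPL2, a conserved protein next to the catalytic centre of the large subunit, had the smallest unadjusted p (0.0041). Averaged over the 2 muscles of an animal, its probe set a measured 7.37, 7.24, 7.31 and 7.66 in the males and 6.74, 6.98, 7.09 and 7.05 in the females. The sexes did not overlap. The difference was -0.43 ± 0.11 (SE, 95% interval -0.68 to -0.18, adjusted p = 0.28). MRPL35, also of the large subunit, measured 8.16, 7.99, 8.08 and 8.56 in the males and 7.73, 7.97, 7.94 and 7.45 in the females. Its lowest male lay just above its highest female, and the difference was -0.43 ± 0.11 (SE, adjusted p = 0.31). Both genes were picked for a small p, which favours sexes that lie apart. How often the sexes lie apart over all tested probe sets was not counted.

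MRPS12 (c) measured 7.71, 6.97, 7.26 and 8.03 in the males and 6.84, 7.40, 7.0 and 6.76 in the females, with overlap. Its difference was -0.49 ± 0.14 (SE, adjusted p = 0.36). In the other direction the 3 members of smallest p were far from the threshold. MRPL33 (a) was higher in females by 0.33 ± 0.21 (SE, adjusted p = 0.71), a value that turned to -0.02 once the set of animals 1, 2, 3 and 5 entered as a covariate. Its males measured 5.95, 6.66, 6.75 and 6.73, and its females 6.61, 6.98, 6.61 and 7.20. The other tested probe set of MRPL33, b, went the opposite way, with means of 10.31 in females and 10.44 in males. MRPL52 (b) measured 9.28, 9.34, 9.43 and 9.24 in the males and 9.27, 9.54, 9.43 and 9.42 in the females (0.09 ± 0.09, SE). MRPL40 measured 7.62, 7.53, 7.58 and 7.77 against 7.61, 7.78, 7.72 and 7.57 (0.05 ± 0.08). In all 3 genes the sexes overlapped.

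Within psoas, the members' mean ran from 7.96 to 8.21 in the males and from 7.78 to 7.87 in the females, without overlap. No member passed the threshold there (0.0959% of all tested probe sets did), 18 were lower in females at an unadjusted p under 0.05 (6.96% of all), and the median was -0.18. MRPL2 (a) had the smallest p of these, with 7.75, 7.42, 7.35 and 7.84 in the males and 6.60, 6.93, 6.95 and 7.04 in the females. Its difference in psoas was -0.71 ± 0.13 (SE, adjusted p = 0.16). Probe set b of MRPL2 ran from 9.30 to 10.04 in male psoas and from 9.12 to 9.42 in female psoas, with overlap. Within diaphragm, the means of the males (7.74 to 7.97) and females (7.65 to 7.85) overlapped. Again no member passed (0.122% of all did), 5 were lower in females at an unadjusted p under 0.05 (2.89% of all), and the median was -0.10, or -0.16 with the grouping of animals as a covariate and between -0.12 and -0.05 when 1 animal was left out.

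Beside these values, 3 of the 4 males and 1 of the 4 females belonged to the diaphragm arrays with the larger beta-actin gap. In psoas that gap ran from 3.29 to 3.56 in the males and from 3.07 to 3.85 in the females. The respiratory chain list had a sex median of -0.07 with 47 of 59 genes lower in females, and the cytosolic ribosome a median of 0.02 with 44 of 56 higher. Neither list had a call (3 and 0 genes at an unadjusted p under 0.05, all 3 lower in females). Among translation factors 9 of 10 were lower in females (median -0.11). The muscle fibre markers had a sex median of 0.02, the fat markers 0.19 and the hepatocyte markers 0.34, with no call. The part of cell makeup and RNA quality in the sex values was not tested.

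**Figure D5:**
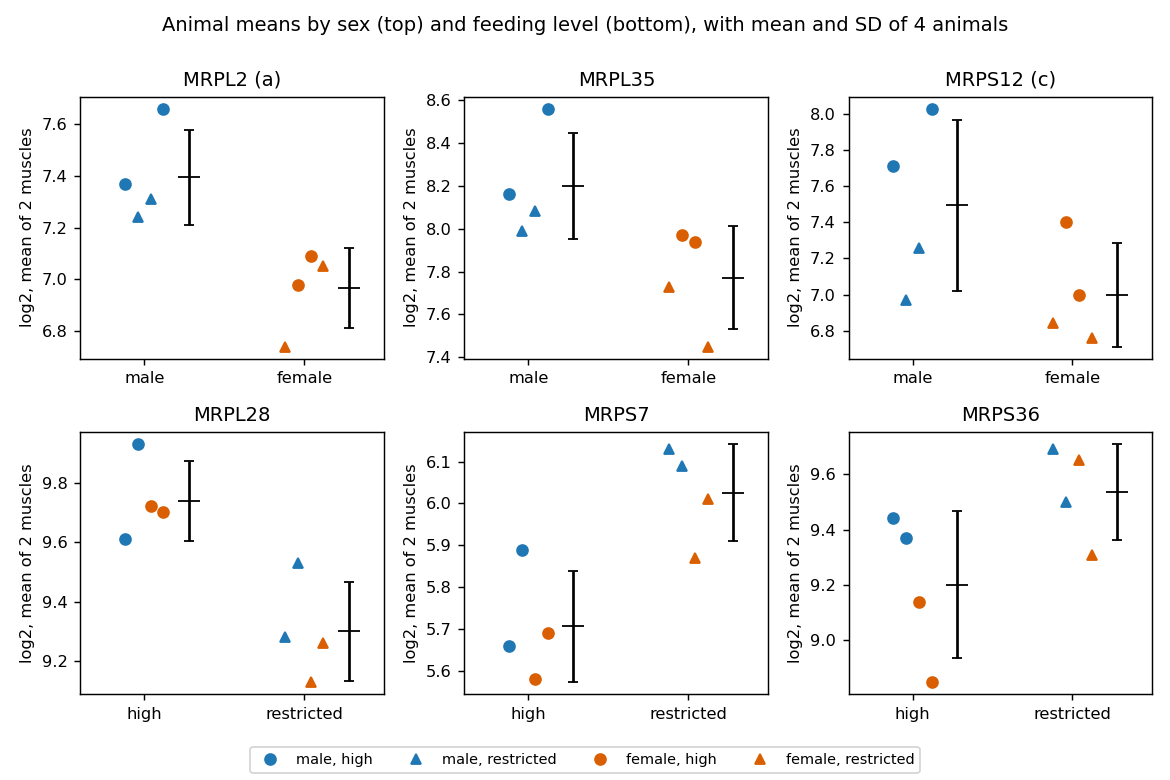
Animal means over both muscles for MRPL2 (a), MRPL35 and MRPS12 (c) by sex (top) and for MRPL28, MRPS7 and MRPS36 by feeding level (bottom), with 4 animals per group, coloured by sex and shaped by feeding level, and the mean and SD beside them. The groups are apart in MRPL2 (a), MRPL35 and MRPL28 and overlap in MRPS12 (c), MRPS7 and MRPS36, and none of the 6 differences passed the adjusted threshold. All 6 were picked for a small p, which favours groups that lie apart.

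Between the feeding levels, no member passed the threshold of limma, nor did any probe set of the array (0.0% called). At an unadjusted p under 0.05, 9 of 71 members were lower under restriction, against 7.26% of all tested probe sets, and 2 were higher, against 5.39%. By sign, 48 of 71 were lower under restriction (67.6%, against 54.0% of all). The median, restricted minus high, was -0.08 for the members and -0.02 for all. Of the 4 restricted animals, 3 were among the 4 with the larger beta-actin gap in diaphragm. With that grouping as a covariate the median was -0.04, with arrays centred it was -0.05, and it ran from -0.05 (without animal 4 or 7) to -0.13 (without animal 6).

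MRPL28, a conserved large-subunit protein, measured 9.61, 9.93, 9.72 and 9.70 in the 4 animals on high feeding and 9.28, 9.53, 9.13 and 9.26 in the 4 restricted animals. The groups did not overlap. The difference was -0.44 ± 0.11 (SE, 95% interval -0.68 to -0.19, adjusted p = 0.28). MRPS12 (c) measured 7.71, 8.03, 7.40 and 7.0 on high feeding and 6.97, 7.26, 6.84 and 6.76 under restriction, with overlap. Its difference was -0.58 ± 0.14 (SE, adjusted p = 0.28). Its probe set b measured 5.60, 5.79, 5.01 and 4.97 on high feeding and 4.84, 4.81, 4.77 and 4.73 under restriction. Here all restricted animals lay below all others, by -0.55 ± 0.14 (SE, adjusted p = 0.28). The probe sets of MRPS12 are for 1 gene and are not independent. These members were picked for a small p, which favours feeding groups that lie apart, and that share over all tested probe sets was not counted.

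In the other direction stood MRPS7, which helps to form the head of the small subunit. It measured 5.66, 5.89, 5.58 and 5.69 on high feeding and 6.13, 6.09, 5.87 and 6.01 under restriction. The groups overlapped by 1 animal, and the difference was 0.32 ± 0.09 (SE, adjusted p = 0.28). MRPS36, now regarded as a component of the 2-oxoglutarate dehydrogenase complex, measured 9.44, 9.37, 9.14 and 8.85 on high feeding and 9.69, 9.50, 9.65 and 9.31 under restriction. Its groups overlapped, with a difference of 0.34 ± 0.12 (SE, adjusted p = 0.35). MRPL9, a large-subunit protein with a bacterial counterpart, measured 8.77, 8.75, 8.60 and 8.60 on high feeding and 9.04, 8.83, 8.78 and 8.77 under restriction. The groups met at 8.77, and the difference was 0.18 ± 0.08 (SE, adjusted p = 0.41).

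Within each muscle the feeding values were alike in kind. In diaphragm no member passed (0.0% of all tested probe sets did), 8 were lower under restriction at an unadjusted p under 0.05 (5.44% of all) and 0 were higher, with a median of -0.08. MRPS12 (c) had the smallest p there. It measured 7.37, 7.83, 7.30 and 7.21 in the diaphragm on high feeding and 6.66, 6.98, 6.49 and 6.59 under restriction, without overlap, a difference of -0.75 ± 0.13 (SE, adjusted p = 0.47). In psoas no member passed either (0.0% of all), 9 were lower (6.78% of all) and 1 was higher at an unadjusted p under 0.05, with a median of -0.10. With the grouping of animals as a covariate, the medians were -0.03 in diaphragm and -0.05 in psoas. Leaving out 1 animal gave -0.11 to -0.05 in diaphragm and -0.12 to -0.05 in psoas.

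Whether the muscle difference depended on feeding level or sex was tested on the difference between the 2 muscles of each animal. For feeding level, no member passed limma's threshold (0.0% of all did), and 0 of 71 had an unadjusted p under 0.05, against 6.07% of all tested probe sets. The median was -0.02, and -0.04 to 0.03 over the alternatives run, so that it had no settled sign. The smallest p belonged to MRPS34, a mitochondria-specific protein of the small subunit (-0.33 ± 0.15, SE, adjusted p = 0.81), and to 1 probe set of MRPL3, near the filter level (-0.27 ± 0.14, adjusted p = 0.83). Intervals reached a median of 0.35 to either side, which is wider than most of the muscle differences themselves.

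For sex, again no member passed (0.0% of all did), and 7 had a smaller psoas excess in females at an unadjusted p under 0.05 (6.69% of all), with a median of -0.09, or -0.05 with arrays centred. MRPS34 was higher in psoas by 0.80, 0.72, 0.61 and 1.17 in the males and by 0.10, 0.18, 0.30 and -0.28 in the females. All males lay above all females, and the difference of differences was -0.75 ± 0.15 (SE, 95% interval -1.09 to -0.41, adjusted p = 0.34). MRPL43 (b) was higher in psoas by 1.12, 0.69, 1.03 and 0.89 in the males and by 0.65, 0.29, 0.28 and 0.33 in the females. The sexes did not overlap here either, with a difference of -0.55 ± 0.16 (SE, adjusted p = 0.40). Both members were picked for the smallest p, which favours sexes that lie apart, and that share over all tested probe sets was not counted. The diaphragm arrays with the larger beta-actin gap were those of males 1, 2 and 3 and of female 5. Female 5 had 0.10 for MRPS34 and 0.65 for MRPL43 (b). The part of RNA quality in these differences was not tested.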

How the data were processed

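The authors deposited log2 expression values, 1 per probe set and array, made with GCRMA per the submitters' processing notes. No version is named there, nor whether the 16 arrays were processed as 1 set. GCRMA corrects background from probe sequence and equalises the arrays, which removes shifts common to most genes and compresses low values. No further scaling was applied.

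Symbols came from the platform annotation: 10099 probe sets had 1 symbol, 198 several and 13826 none. Those with several were not named, which left out 6 that carry a member's symbol among others. Tests excluded the 124 control probe sets.

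Linear models of limma 3.58.1 (lmFit, eBayes; R 4.3.3) were fitted to all 11467 tested probe sets, with Benjamini-Hochberg adjustment. The fits were tested on simulated data with planted differences larger than any of the members and no pairing of arrays by animal. That simulation therefore does not check calls of the size reported here. The muscle fit took 16 arrays and had covariates for sex and for feeding level. Feeding levels and sexes were compared on 8 animal means with the other factor as covariate, and within each muscle on 8 arrays. The animal numbers pair the arrays, since the labels give the same animals for both muscles. Residuals of the 2 arrays of an animal correlated at 0.0724 to 0.257. No 2 arrays held identical values. The number of animals limits the precision.

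The members and lists were chosen with earlier results of these data known. Named members were the called ones of largest difference between the muscles (up to 8 per direction), the 3 of smallest p per direction for feeding and sex, the 2 of smallest p where the muscle difference was tested for dependence, the 3 highest and 3 lowest means, genes with several tested probe sets, and, from each other list, the 3 called genes of smallest p per direction. Alternatives were another filter, arrays centred on their median, a variance trend, no covariate, each animal left out, the animal as a block and 1 probe set per gene. Animals 4, 6, 7 and 8 alone and a covariate for animals 1, 2, 3 and 5 were added after the data were seen.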

Additional observations from a re-analysis of the deposited data

Results flagged for a closer look

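In 4 of the 59 sets of values looked at among the named members, 1 animal lay far from the rest of its group, where chance flags about 1 set in 20. MRPL58 measured 8.85 in the diaphragm of animal 4, a male on high feeding, while the other 7 diaphragm arrays ran from 8.38 to 8.54. MRPL33 (probe set a) averaged 5.95 over the muscles of animal 1, against 6.66 to 6.75 in the other 3 males. MRPL3 (probe set a) measured 4.41 in the psoas of animal 4, against 4.04 to 4.19 in the other psoas arrays, all near the filter level. MRPS21 measured 10.82 in the diaphragm of animal 7, against 11.03 to 11.17 in the other diaphragm arrays.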

How the results depend on the processing

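The number of members called between the muscles was 19, and 11 (without animal 3) to 22 (without animal 8) when 1 animal was left out, of which 11 to 21 were higher in psoas and 0 to 2 higher in diaphragm. The share of all tested probe sets called moved as well, from 18.9% (without animal 3) to 25.3% (without animal 6). In animals 4, 6, 7 and 8 alone the number of members called was 0 in either direction, and 3.53% of all tested probe sets were called. Only 8 arrays entered that fit. The count higher in diaphragm was 2 with the stricter filter, 0 with no covariate and 3 with the replicate block (animal number), which pairs the arrays of an animal. The block gave 28 member calls in all, and 33.5% of all tested probe sets were called with it. With the block, no member was called for feeding or sex. The cause of these changes was not tested. The median muscle difference lay between 0.12 and 0.20, that of sex between -0.16 and -0.11 and that of feeding between -0.13 and -0.04, over every alternative run. The sex difference of MRPL33 (probe set a) reversed to -0.02 once the set of animals 1, 2, 3 and 5 entered as a covariate. With 4 animals per group, differences of single members as large as -0.58 (MRPS12, probe set c, feeding) and -0.49 (the same, sex) did not pass the adjusted threshold.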
